A study of Mus musculus with 2 samples.

Results

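The cytosolic ribosomal protein genes encode the protein part of the ribosome that translates nuclear-encoded messages. Members were the genes whose symbol is Rps or Rpl followed by a number, with or without a final a, x or y, together with Rplp0, Rplp1, Rplp2 and Rpsa. The rule used names alone and took 76 of 55416 gene features, 30 of the small (40S) and 46 of the large (60S) subunit. All 76 had at least 100 UMIs (unique molecular identifiers, each standing for 1 captured transcript molecule) in kept nuclei, and 0 fell under that minimum. Rps3a1, Fau and Rack1 also encode ribosomal proteins, but their symbols fall outside the rule and they are given separately.

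Each ribosomal subunit is built in the nucleolus from ribosomal RNA and imported ribosomal proteins, and is then exported to the cytoplasm. The messages for these proteins are among the most abundant in growing cells, are short, and many begin at a C followed by a run of pyrimidines, the 5′ terminal oligopyrimidine tract through which mTOR signalling controls their translation. In the fetal brain they are used by progenitors and young neurons alike, and since a finished message leaves the nucleus, most copies in an intact cell lie in the cytoplasm.

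The study compared the whole brain of fetal mice labelled wildtype with that of fetal mice labelled as a knockout of Cav1, which encodes the caveolar coat protein caveolin 1. Frozen tissue was thawed, nuclei were isolated by douncing and a sucrose cushion, and 10x Genomics 3′ v3.1 libraries were made from them. Each genotype is represented by 1 library, so no difference between genotypes has a replicate check, no test or p-value is given, and all intervals are exact 95% intervals that cover counting error only. Strain, sex, gestational day, the allele and the number of animals behind each library are not stated in the labels.

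The wildtype-labelled library held 9763 barcodes and 19048835 UMIs, and the knockout-labelled library 10811 barcodes and 22504908 UMIs. After filtering, 6151 and 6146 nuclei were kept, with medians of 2074 and 2296.5 UMIs. Barcodes with under 500 detected genes, of which there were 2969 (30.4%) and 3904 (36.1%) with medians of 550 and 578 UMIs, were set apart as a reference for RNA outside nuclei. They are called low-gene barcodes here, and they were not filtered on mitochondrial UMIs. The targeted gene did not separate the libraries: Cav1 had 55 UMIs in kept wildtype-labelled nuclei, 3.77 CPM (2.84 to 4.91; CPM is the gene's UMIs per 1000000 UMIs of the set), and 70 UMIs in kept knockout-labelled nuclei, 4.02 CPM (3.13 to 5.08). For that reason the libraries are named by their labels throughout, and where the values of both are joined by "and" the wildtype-labelled one comes first. The libraries shared 43 barcodes, 23 and 12 of which were kept.

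Start sequences are printed for 9 members because the pyrimidine run is a sequence feature of many of these genes, though not of most windows matched here. RefSeq start windows (GRCm38.p6) of 30 bases, 15 before the annotated start and 15 from it, were matched for 56 of the 76 members in 66 windows. Members with no matched window included Rpl3, Rpl7, Rpl8, Rpl17, Rpl21, Rpl23a, Rpl29, Rpl30, Rpl32, Rpl36, Rplp1, Rps14, Rps20, Rps27a and Rps29. The run searched for was a C followed only by C or T, at least 5 bases long, on the strand of the gene. It was counted from any C within 5 bases of the annotated start, whether or not further pyrimidines lay before that C, and capitals mark the longest run counted in this way. The windows below run 5′ to 3′ and are followed by their positions.
Rps10: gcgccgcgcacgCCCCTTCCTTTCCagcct
Rpl35a: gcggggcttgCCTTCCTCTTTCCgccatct
Rpl15: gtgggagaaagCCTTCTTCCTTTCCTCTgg
Rpl38: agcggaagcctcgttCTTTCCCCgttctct
Rps6: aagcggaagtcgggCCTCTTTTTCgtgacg
Rpl31: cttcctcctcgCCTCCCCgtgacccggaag
Rpl5: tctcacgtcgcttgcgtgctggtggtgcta
Rpl6: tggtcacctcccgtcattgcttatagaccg
Rpl24: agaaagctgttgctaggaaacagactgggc
The first 6 hold the run and the last 3 do not. Rps10 lies at chr17:27635230-27635259 on the minus strand, Rpl35a at chr16:33056467-33056496 on the plus strand and Rpl15 at chr14:18270972-18271001 on the minus strand. Rpl38 lies at chr11:114668565-114668594 (plus), Rps6 at chr4:86857353-86857382 (minus) and Rpl31 at chr1:39367836-39367865 (plus). Rpl5 lies at chr5:107900513-107900542, Rpl6 at chr5:121204486-121204515 and Rpl24 at chr16:55966260-55966289, all on the plus strand. Rpl35a had 3 annotated starts, and the window shown is the one with the run.

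A run counted from a C within 5 bases of the start was present in 29 of the 66 member windows (43.9%, in 27 genes), against 18.3% of 32785 windows of other genes. A run of 8 or more bases was present in 30.3% of member windows and 4.32% of the others. With the annotated start base itself as that C, whatever lay before it, a run of at least 5 bases was present in 13 member windows (19.7%) and in 2.47% of the others. Among genes of related function, 26.7% of 15 windows of translation factors and 22.7% of 75 windows of mitochondrial ribosomal proteins held a run of at least 5 bases counted in the same way. A match is a description of the letters in the window, and no match says nothing about whether the message carries such a tract.

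The member genes supplied 2.52% (2.52 to 2.53) of UMIs in wildtype-labelled and 2.38% (2.37 to 2.39) in knockout-labelled kept nuclei. In low-gene barcodes they supplied 10.1% (10.1 to 10.2) and 10.95% (10.91 to 10.99). The number of ribosomal protein UMIs per barcode was far more even than the share. Its median was 57 and 64 in low-gene barcodes and 56 and 68 in kept nuclei. No barcode of either library lacked ribosomal protein UMIs, and the lowest counts were 8 and 3.

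Sorting all barcodes by total UMIs showed the same pattern more finely. From the barcodes of 500 to 600 UMIs to those of 5000 to 10000 UMIs, the median total was 11.3-fold higher in each library. Over the same range the median number of ribosomal protein UMIs went from 55 to 76 and, in the knockout-labelled library, from 61 to 85, 1.38-fold and 1.39-fold higher, whereas all other UMIs were 12.5-fold higher in both. The ribosomal protein share was thus 10.2% at 500 to 600 UMIs and 1.36% at 5000 to 10000 UMIs in wildtype-labelled barcodes, and 11.1% and 1.35% in knockout-labelled ones. The median count was not a smooth function of depth. It reached 67 and 75 at 700 to 800 UMIs, was 45 in both libraries at 1000 to 1500 UMIs, and was higher again above that.

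**Figure D1:**
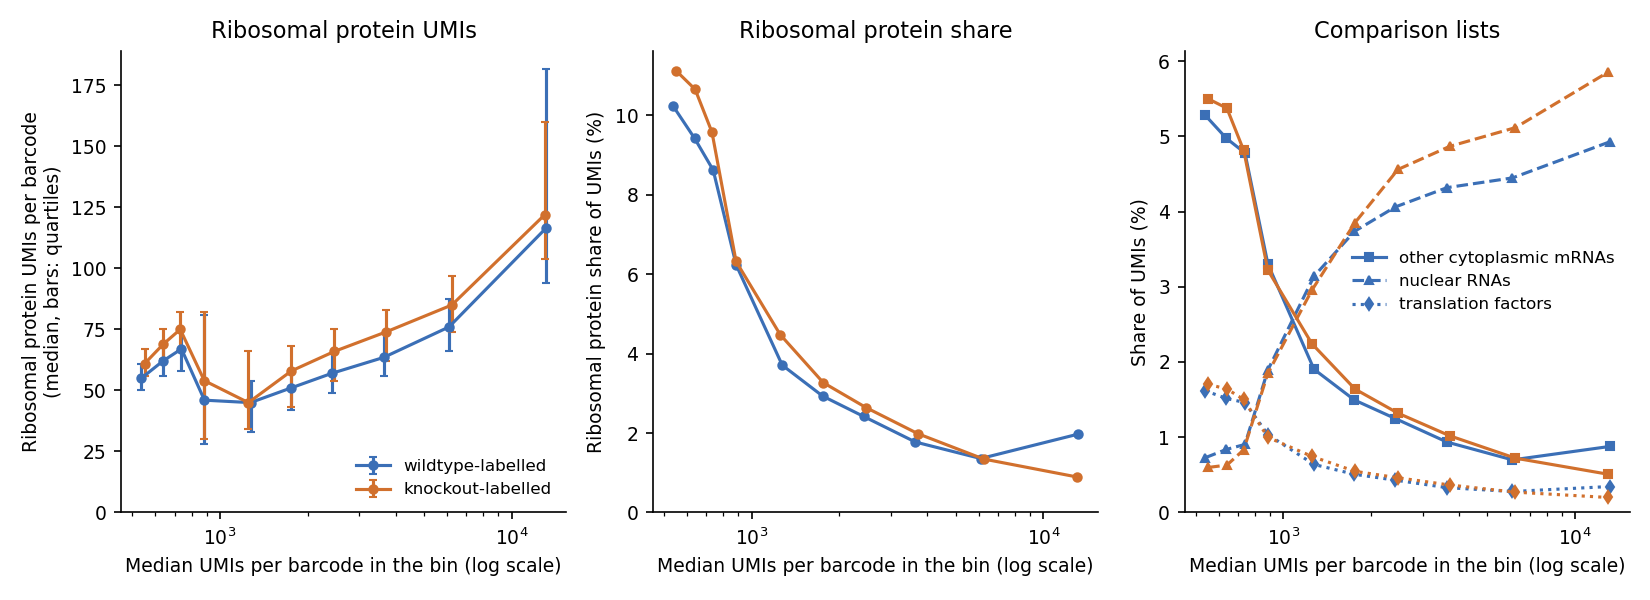
Median ribosomal protein UMIs per barcode with quartiles (left), ribosomal protein share of UMIs in percent (middle) and shares of 3 comparison lists (right), against the median UMIs of each range of barcodes on a log scale, with wildtype-labelled barcodes in blue and knockout-labelled in orange. The share was 10.2% and 11.1% in barcodes of 500 to 600 UMIs and 1.36% and 1.35% at 5000 to 10000 UMIs, while the median number of ribosomal protein UMIs stayed between 45 and 85 over that range.

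Other cytoplasmic messages followed the same course, and nuclear RNAs the opposite one. Translation factors such as Eef1a1, Naca and Tpt1 made up 1.62% and 1.70% of UMIs at 500 to 600 UMIs and 0.278% and 0.270% at 5000 to 10000 UMIs. A list of other cytoplasmic messages, among them Tmsb4x, Tuba1a and Ptma, went from 5.28% and 5.50% to 0.699% and 0.721%. Nuclear RNAs, mainly Malat1, went from 0.726% and 0.598% up to 4.45% and 5.11%. Haemoglobin UMIs, which mark red blood cell RNA, made up 0.507% and 0.422% of the low bin and 0.0518% and 0.0631% of the high bin. The part of free RNA in the ribosomal protein UMIs of nuclei was not tested.

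Cluster 0 of the kept nuclei lay near the low-gene barcodes in these measures. Its 621 wildtype-labelled and 955 knockout-labelled barcodes had medians of 740 and 705 UMIs and ribosomal protein shares of 11.1% and 10.7%. Of its wildtype-labelled ribosomal protein UMIs, 21.0% came from 2 barcodes of very high counts described further on, and without them that share was 9.99% (9.90 to 10.1). Haemoglobins made up 0.545% and 0.452% of its UMIs and mitochondrially encoded genes 2.09% and 1.64%, against 0.588% and 0.497%, and 2.13% and 1.63%, in low-gene barcodes. Over all kept nuclei haemoglobins made up 0.108% and 0.0818% and mitochondrially encoded genes 0.716% and 0.782%. Hba-x, Hbb-y and the platelet and macrophage chemokine gene Pf4 were among its leading genes, as were Sncg and Ppp1r15a. Its raised markers came from many cell types. They included radial glia (Fabp7, Vim), dividing cell (Top2a, Mki67), neuron (Stmn2, Tubb3) and fibroblast (Col1a1, Col3a1) markers, and the cluster was left unnamed. In kept nuclei outside cluster 0, the ribosomal protein share was 2.17% and 2.02%.

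Each of the 76 members was more abundant, as a share of UMIs, in low-gene barcodes than in kept nuclei of the same library. All 76 were past 2-fold in both libraries, against 14.4% of the 15025 features with at least 100 UMIs, and all 76 were past 3-fold, against 6.93%. The member median of the log2 ratio was 2.0 and 2.21, and the median over all features was −0.46 and −0.51. The members spanned 1.67 to 2.25 and 1.77 to 2.46, and 76 of 76 had the higher ratio in the knockout-labelled library, against 44.4% of all features and 20 of the 22 other cytoplasmic messages listed further on. These ranges are narrow beside the 5th to 95th percentile of all features, −3.63 to 1.84 and −3.85 to 1.92. The 22 other cytoplasmic messages spanned 1.88 to 2.26 and 1.97 to 2.41, so a narrow range was not particular to the members. The set of low-gene barcodes was chosen by genes detected, and with barcodes under 800 UMIs in its place the log2 ratio of the summed counts was 2.06 and 2.35, against 2.01 and 2.2.

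Rps10, a small-subunit protein that is mutated in some families with Diamond-Blackfan anaemia, had the highest mean ratio over both libraries (ENSMUSG00000052146; GRCm39 chr17:27849390-27855643, minus strand, 5 introns). It stood at 56.3 and 36.8 CPM in kept nuclei and at 244 and 202 CPM in low-gene barcodes, log2 ratios of 2.12 (1.94 to 2.29) and 2.46 (2.28 to 2.63). Rpl29 had log2 ratios of 2.25 and 2.26, Rpl31 of 2.20 and 2.32, and Rpl23a of 2.17 and 2.39. Low-gene barcodes exceeded kept nuclei in both libraries for each of these genes.

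The 4 members with the lowest mean ratios were all of the large subunit. Rpl6 (ENSMUSG00000029614; chr5:121342541-121347580, plus strand, 6 introns, 1 snoRNA) stood at 264 and 268 CPM in kept nuclei and 837 and 962 CPM in low-gene barcodes. Its log2 ratios were 1.67 (1.58 to 1.75) and 1.85 (1.77 to 1.92). Rpl5, which binds 5S ribosomal RNA together with Rpl11 and with it can restrain the p53 inhibitor Mdm2 (ENSMUSG00000058558; chr5:108048367-108058471, plus strand, 7 introns, 3 snoRNAs), stood at 174 and 175 CPM against 586 and 598 CPM, log2 ratios of 1.75 (1.64 to 1.86) and 1.77 (1.68 to 1.86). Its partner Rpl11 had 1.92 and 2.18. Rpl22, which has a paralog Rpl22l1, had 1.92 and 2.04, and Rpl15 had 1.91 and 2.06. Even these were more than 3-fold higher in low-gene barcodes.

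Subunit, location and gene structure divided the members little. Small-subunit genes had a median log2 ratio of 2.01 and 2.21 and large-subunit genes 2.0 and 2.21. The 29 genes with a snoRNA gene inside them had medians of 1.99 and 2.19, and the other 47 had 2.01 and 2.21. Over the 76 genes the mean ratio of both libraries had a Spearman correlation of −0.22 with intron number and −0.07 with gene span. The 4 X-linked genes (Rps4x, Rpl10, Rpl36a and Rpl39) had 2.08 and 2.25, and the 3 stalk genes (Rplp0, Rplp1 and Rplp2), whose proteins recruit translation factors to the ribosome, had 1.98 and 2.26. The 27 genes with a pyrimidine run of 5 or more bases near the start had 2.01 and 2.19, and the 29 with a matched window but no such run had 2.0 and 2.21. Among the printed sequences, Rps10 (2.12 and 2.46), Rpl15 (1.91 and 2.06) and Rpl31 (2.20 and 2.32) all hold a run.

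**Figure D2:**
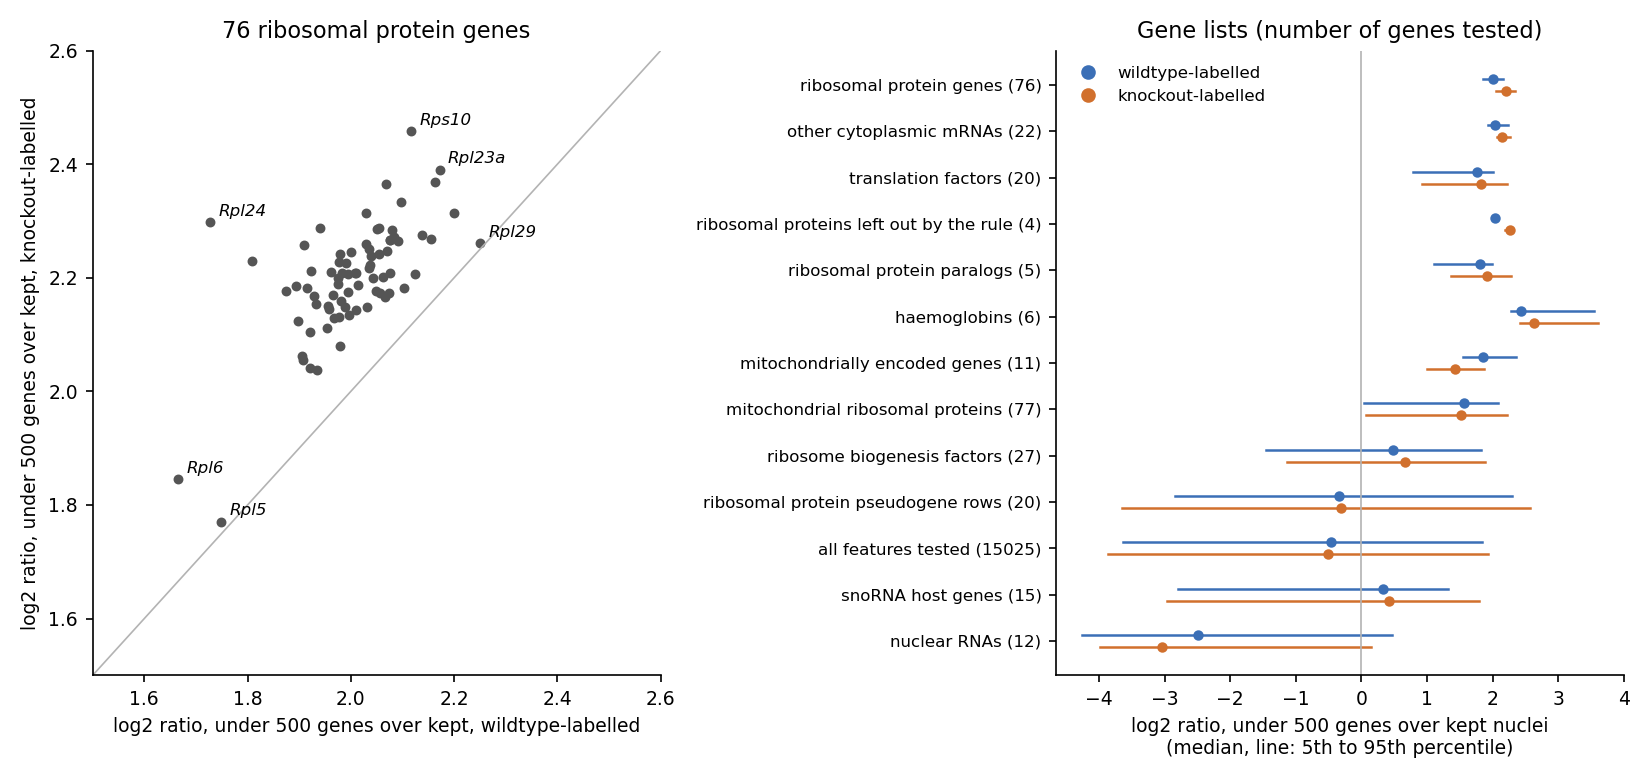
Log2 ratio of low-gene barcodes to kept nuclei for each of the 76 members, wildtype-labelled on the horizontal and knockout-labelled on the vertical axis with the line of equality (left), and the median and 5th to 95th percentile of each gene list in each library (right). The members lie between 1.67 and 2.46, all above the line, the other cytoplasmic messages lie beside them on the right, and the nuclear RNAs lie mostly below 0.

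The 22 other cytoplasmic messages had log2 ratios of summed counts of 2.02 and 2.16, and 22 of 22 were past 2-fold in both libraries. The 20 translation factors had 1.85 and 2.0 (17 of 20), and the 4 ribosomal proteins outside the symbol rule had 2.03 and 2.24 (4 of 4). Mitochondrial ribosomal proteins, which are nuclear-encoded but serve the mitochondrial ribosome, had 1.43 and 1.52 (56 of 77). Ribosome biogenesis factors had 1.06 and 1.07, with medians of 0.48 and 0.67: 11 of 27 were past 2-fold higher, among them Npm1 (1.85 and 1.91) and Ncl (1.76 and 1.71), and 2 were past 2-fold lower, including Nvl (−1.40 and −1.51).

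Noncoding hosts and nuclear RNAs behaved differently. In the snoRNA host list the sum and the median differed in sign, at −0.47 and −0.70 for the sum and 0.33 and 0.43 for the median. Gas5, itself a host whose message has a pyrimidine tract, had 1.01 and 1.15, while Snhg11, a long noncoding RNA of neurons, had −3.31 in both libraries. The 12 nuclear RNAs had −2.44 and −2.95, with 10 of 12 past 2-fold lower and 1 past 2-fold higher. The 6 haemoglobins had 2.45 and 2.6. The 11 mitochondrially encoded genes had 1.58 and 1.06.

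In kept nuclei the members differed little between libraries. The summed level was lower in the knockout-labelled library by a log2 ratio of −0.084 (−0.091 to −0.078), and the member median was −0.10, against −0.02 over all features with a 5th to 95th percentile of −0.33 to 0.40. In low-gene barcodes the sum was higher, at 0.11 (0.10 to 0.12), and the member median was 0.09, against −0.03 over all features. In kept nuclei 63 of the 76 members were below 0 and 13 above, while 54.7% of all features were below 0. The intervals of 53 members lay below 0, against 13.4% of features, 4 lay above, against 12.4%, and 19 included 0. Most features have fewer UMIs than the members and so wider intervals. Of the 22 other cytoplasmic messages, 14 were below 0, and the intervals of 12 lay below 0 and of 4 above. In low-gene barcodes 68 of 76 members were above 0, against 43.2% of features and 14 of the 22 other cytoplasmic messages. Past 1.5-fold, 0 members were higher, against 2.0% of features, and 1 was lower, against 0.692%. Past 1.2-fold, 2 were higher, against 10.4%, and 3 were lower, against 8.11%.

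**Figure D3:**
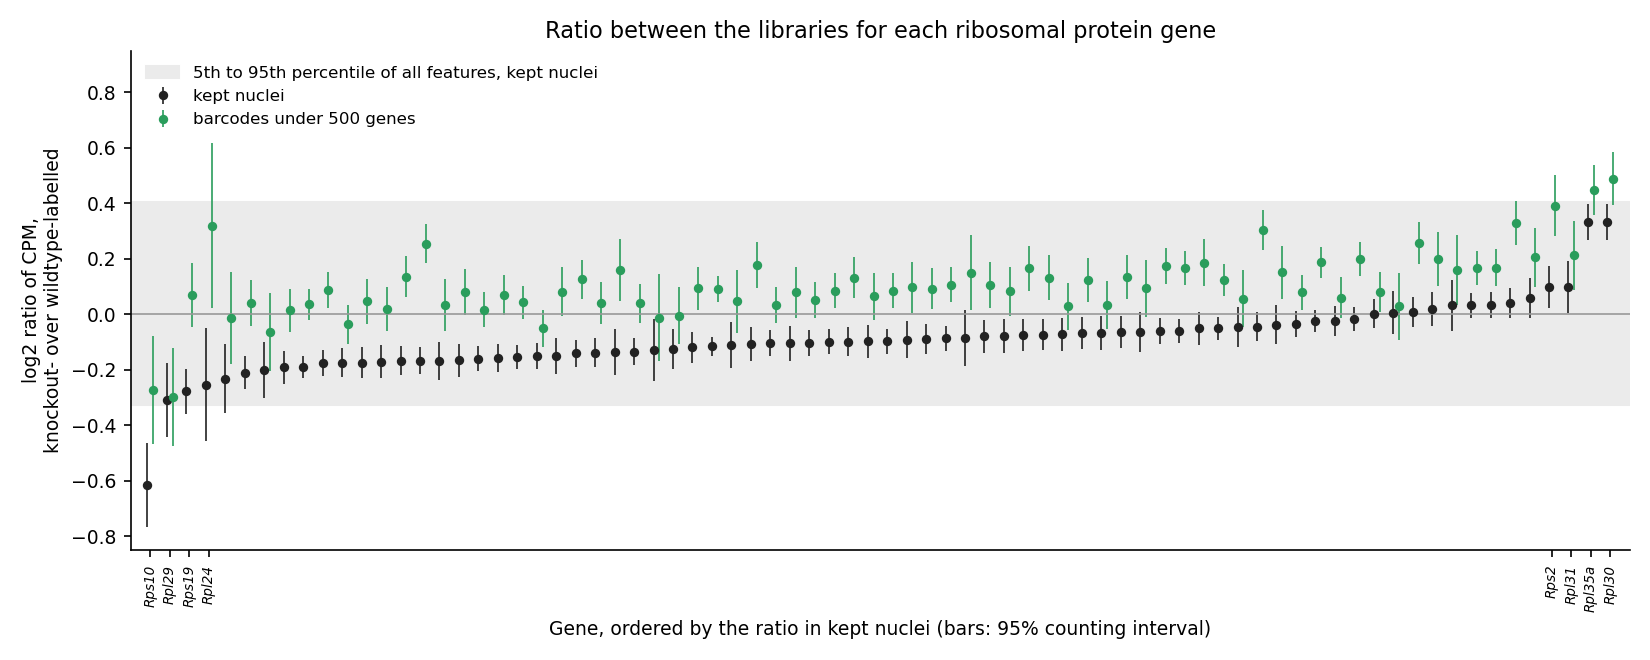
Log2 ratio of the knockout-labelled to the wildtype-labelled library (vertical axis) for each member, ordered by its value in kept nuclei (black) and shown also in low-gene barcodes (green), with the 4 genes at each end of the order named, 95% counting intervals and a grey band for the 5th to 95th percentile of all features in kept nuclei. In kept nuclei 63 of 76 members lie below 0, in low-gene barcodes 68 of 76 lie above 0, and Rps10 alone lies outside the band in kept nuclei.

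The direction of the summed difference turned on the deepest barcodes and on which nuclei were counted. Over all barcodes it was above 0 in each of the 8 UMI ranges below 5000, from 0.02 (−0.01 to 0.05) at 800 to 1000 UMIs to 0.27 (0.25 to 0.29) at 1000 to 1500 UMIs. It was −0.01 at 5000 to 10000 UMIs and −1.14 (−1.16 to −1.11) at 10000 UMIs and over. That last value rested on 2 wildtype-labelled barcodes. One had 28146 UMIs, of which 5737 (20.4%, 19.9 to 20.9) were ribosomal protein UMIs, and the other had 40353 UMIs, of which 7712 (19.1%, 18.7 to 19.5) were. All 76 members were detected in each, Malat1 supplied only 0.401% and 1.11% of their UMIs, and haemoglobins 0.878% and 0.818%. The pair belonged to cluster 0 and held 3.66% of the ribosomal protein UMIs of all kept nuclei of that library. The next highest count was 1103, and the highest in the knockout-labelled library was 986. Without the pair the ratio at 10000 UMIs and over was −0.05 (−0.09 to −0.02), that of all kept nuclei was −0.04, and 57 members were below 0 and 19 above, with 54.7% of all features below 0. Within kept nuclei of 1000 to 10000 UMIs, 45 were below 0 and 31 above, with 53.9% of features below 0.

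Other RNA also differed between the libraries. The sum of the 22 other cytoplasmic messages had a log2 ratio of −0.089 in kept nuclei and 0.052 in low-gene barcodes. That of the translation factors was −0.085 and 0.066, so both lists changed direction as the members did. In kept nuclei the log2 ratio of summed counts was −0.40 for haemoglobins, 0.13 for mitochondrially encoded genes and 0.23 for nuclear RNAs, and in low-gene barcodes it was −0.24, −0.39 and −0.28. Their part in the ribosomal protein difference was not tested.

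Rps10, Rpl30 and Rpl35a departed from the shared level, and the order of the libraries was the same in nuclei and in low-gene barcodes for each of them. Rps10 was lower in the knockout-labelled library, at 56.3 against 36.8 CPM in kept nuclei, a log2 ratio of −0.61 (−0.77 to −0.46), and at 244 against 202 CPM in low-gene barcodes, −0.27 (−0.47 to −0.08). The interval lay below 0 in each of the 4 named cell classes with at least 200 nuclei per library, at −0.87 in radial glia-like nuclei, −0.55 in forebrain inhibitory neuron-like nuclei, −0.60 in the cortical excitatory class and −0.80 in the other excitatory class. By UMIs per barcode it was below 0 in 9 of 10 ranges and 0.04 (−0.46 to 0.53) at 1000 to 1500 UMIs. The interval lay below 0 in 5 ranges and included 0 in the other 5. Without the 2 barcodes described above it was −0.58 in kept nuclei, short of 1.5-fold, and −1.19 (−2.03 to −0.35) at 10000 UMIs and over. Rps10 pseudogene features held 151 and 168 UMIs, 15.5% and 20.8% of the sum with Rps10, and adding them gave −0.52 (−0.66 to −0.39). From which copy those reads came was not tested. Gm49804, which overlaps Rps10 on the same strand, held 13 and 16 UMIs.

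Rpl30, whose yeast counterpart binds its own transcript, was higher in the knockout-labelled library (ENSMUSG00000058600; chr15:34440430-34443879, minus strand, 4 introns). It stood at 223 against 281 CPM in kept nuclei, a log2 ratio of 0.33 (0.27 to 0.40), and at 835 against 1172 CPM in low-gene barcodes, 0.49 (0.40 to 0.58). In the 4 classes, in the order given for Rps10, the ratio was 0.36, 0.48, 0.45 and 0.30. By UMIs per barcode it was between 0.30 and 0.64 in the 9 ranges below 10000, and at 10000 and over it was −0.50 with the 2 high barcodes and 0.35 (0.02 to 0.68) without them.

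Rpl35a, a large-subunit protein also linked to Diamond-Blackfan anaemia, had nearly the same values (ENSMUSG00000060636; chr16:32876630-32880559, plus strand, 4 introns). It stood at 219 against 275 CPM in kept nuclei, a log2 ratio of 0.33 (0.27 to 0.40), and at 910 against 1240 CPM in low-gene barcodes, 0.45 (0.36 to 0.54). The class ratios, in the same order, were 0.39, 0.41, 0.61 and 0.32. It was between 0.30 and 0.83 in the 9 ranges below 10000 UMIs, and at 10000 and over it was −0.81 with the 2 high barcodes and 0.36 (−0.01 to 0.73) without them. Gm17106 overlaps Rpl35a on the opposite strand and had 2742 and 3703 UMIs, a ratio of 0.18, and whether counting used the strand is not given in the sources used here. Rpl30 and Rpl35a were the 2 members whose interval lay above 0 in all 4 classes, and Rps10 the 1 member whose interval lay below. The shares of all features were 0.166% above 0 and 0.0799% below. Of the 22 other cytoplasmic messages, 3 lay above 0 in all 4 classes and 1 below, so the members did not stand out from that list.

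**Figure D4:**
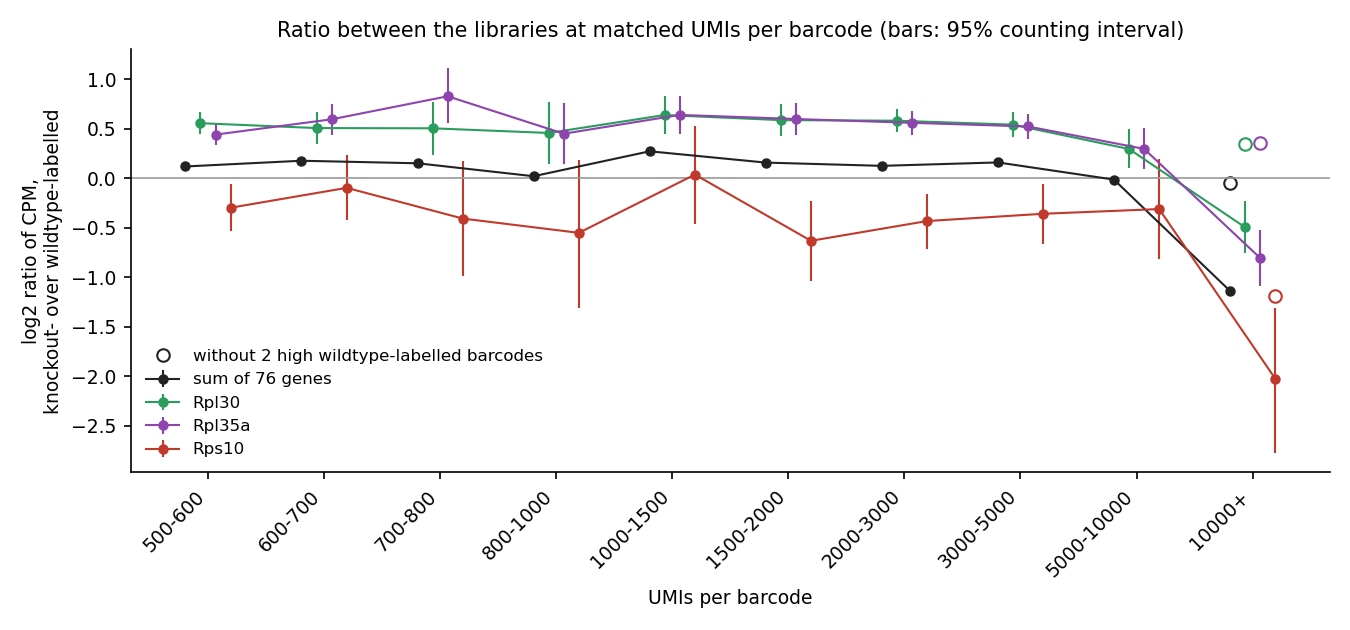
Log2 ratio of the knockout-labelled to the wildtype-labelled library (vertical axis) by total UMIs per barcode (horizontal axis) for the sum of the members, Rpl30, Rpl35a and Rps10, with 95% counting intervals; open circles leave out the 2 high wildtype-labelled barcodes. Rpl30 and Rpl35a lie between 0.30 and 0.83 in the 9 ranges below 10000 UMIs, and only the last range moves when the 2 barcodes are left out.

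The other members at the ends of the order differed less. Rpl29, whose protein also binds heparin, was lower at 63.7 against 51.4 CPM, −0.31 (−0.44 to −0.18), in kept nuclei and −0.30 in low-gene barcodes. Rps19, the gene most often mutated in Diamond-Blackfan anaemia, stood at 165 against 136 CPM, −0.28 (−0.36 to −0.20), in kept nuclei, but at 634 against 666 CPM, 0.07, in low-gene barcodes. Rpl24, the gene of the mouse Belly spot and tail mutant, stood at 27.4 against 23.0 CPM, −0.25 (−0.46 to −0.05), and at 90.9 against 113 CPM, 0.32, in low-gene barcodes; Gm28037 overlaps it on the same strand. Rps2 had 0.10 (0.02 to 0.18) in kept nuclei and 0.39 in low-gene barcodes, and Rpl31 had 0.10 and 0.21. Without the 2 high barcodes Rpl29 and Rps19 had −0.20 in kept nuclei and Rps2 had 0.17.

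For the remaining members with a known role the ratios in kept nuclei lay between −0.23 and 0.06. Rps4x, Rpl10, Rpl36a and Rpl39 on the X chromosome had −0.07, −0.04, −0.09 and 0.00. In the stalk, Rplp0 had −0.04, Rplp1 −0.19 and Rplp2 −0.10. Rpsa, a small-subunit protein also known as a laminin receptor, had 0.04 in kept nuclei and 0.33 in low-gene barcodes. Rps27a, which is made as a fusion with ubiquitin, had −0.10, and Rpl41, the smallest ribosomal protein, −0.05. Rpl5 had 0.01 and Rpl11 −0.14. Rpl6, Rpl15 and Rpl22 had 0.02, 0.06 and −0.13. Rps3, Rps25 and Rpl23a had −0.13, −0.14 and −0.23.

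The relative levels of the members were close to the same in every set of barcodes. Across the 76 genes, log2 CPM in kept nuclei of the 2 libraries had a Pearson r of 0.992, and kept nuclei and low-gene barcodes of 1 library had 0.994 in each. These are descriptions over genes of the same libraries. Divided by the exon length of the canonical transcript (GENCODE M39), the highest levels in wildtype-labelled nuclei were those of Rps29 (1843 CPM per kilobase), Rps28 (1249), Rplp1 (1226), Rpl41 (1049) and Rpl38 (1048). The lowest were Rpl29 (19.1), Rpl31 (27.4), Rpl24 (40.5) and Rpl5 (47.8). The 3′ assay counts a molecule once whatever its length, and M39 gives Rpl29, Rpl31 and Rpl5 canonical transcripts of 3330, 4122 and 3646 bases, so the length scale itself sets part of this order.

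Clustering without the member genes gave 23 clusters, of which 17 were named in 12 classes from marker genes. The naming thresholds were set after the clusters were seen, and 34.2% of kept wildtype-labelled and 48.0% of knockout-labelled nuclei stayed unnamed. The 4 named classes with at least 200 nuclei per library differed in their ribosomal protein share. Forebrain inhibitory neuron-like nuclei (1067 and 902) had 2.95% and 3.03%, radial glia-like nuclei (584 and 398) had 2.52% and 2.61%, cortical excitatory neuron-like nuclei (1115 and 848) had 2.22% and 2.29%, and other excitatory neuron-like nuclei (589 and 522) had 1.83% and 1.82%. The order was the same in both libraries. The forebrain inhibitory class included cluster 11 (204 and 201 nuclei). The raised markers of cluster 11 held Dlx genes and dividing-cell genes such as Top2a and Mki67, but not Gad1 or Gad2. Its share over both libraries was 3.10%, against 2.94% and 3.00% in clusters 9 and 10 of the same class.

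Depth differed between these classes in the opposite order. Median UMIs were 1665 and 1805.5 in forebrain inhibitory neuron-like, 2087.5 and 2333 in radial glia-like, 2208 and 2425 in cortical excitatory neuron-like and 2710 and 3023.5 in other excitatory neuron-like nuclei. The median number of ribosomal protein UMIs per nucleus was between 52 and 57 over the 4 wildtype-labelled classes and between 62 and 66 over the knockout-labelled ones. Among nuclei of 2000 to 3000 UMIs the spread of shares was smaller but kept its order, with 2.62% and 2.88% in forebrain inhibitory neuron-like, 2.58% and 2.78% in radial glia-like, 2.30% and 2.62% in cortical excitatory neuron-like and 2.13% and 2.33% in other excitatory neuron-like nuclei.

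Of the unnamed clusters, cluster 8, led by Skor2 and Chat, had the lowest share at 1.53% and 1.41% and the greatest depth, with median UMIs of 3188 and 3765. Clusters 5 and 1 had 2.08% and 2.23%, and 2.31% and 2.22%. The log2 ratio between libraries was 0.05 in radial glia-like, 0.04 in forebrain inhibitory and 0.05 in cortical excitatory neuron-like nuclei, −0.01 in the other excitatory class, and it was −0.11 in cluster 8, 0.10 in cluster 5 and −0.06 in cluster 1. In cluster 0 it was −0.06 with the 2 high barcodes and 0.10 (0.085 to 0.12) without them. These ratios cover nuclei of all depths. Among nuclei of 2000 to 3000 UMIs the knockout-labelled share was higher in each of the 4 named classes, as given above. In that range it was also higher in cluster 8 (2.045% and 2.20%), cluster 5 (2.22% and 2.56%) and cluster 1 (2.39% and 2.52%). Cluster 0 had only 3 and 2 barcodes there.

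**Figure D5:**
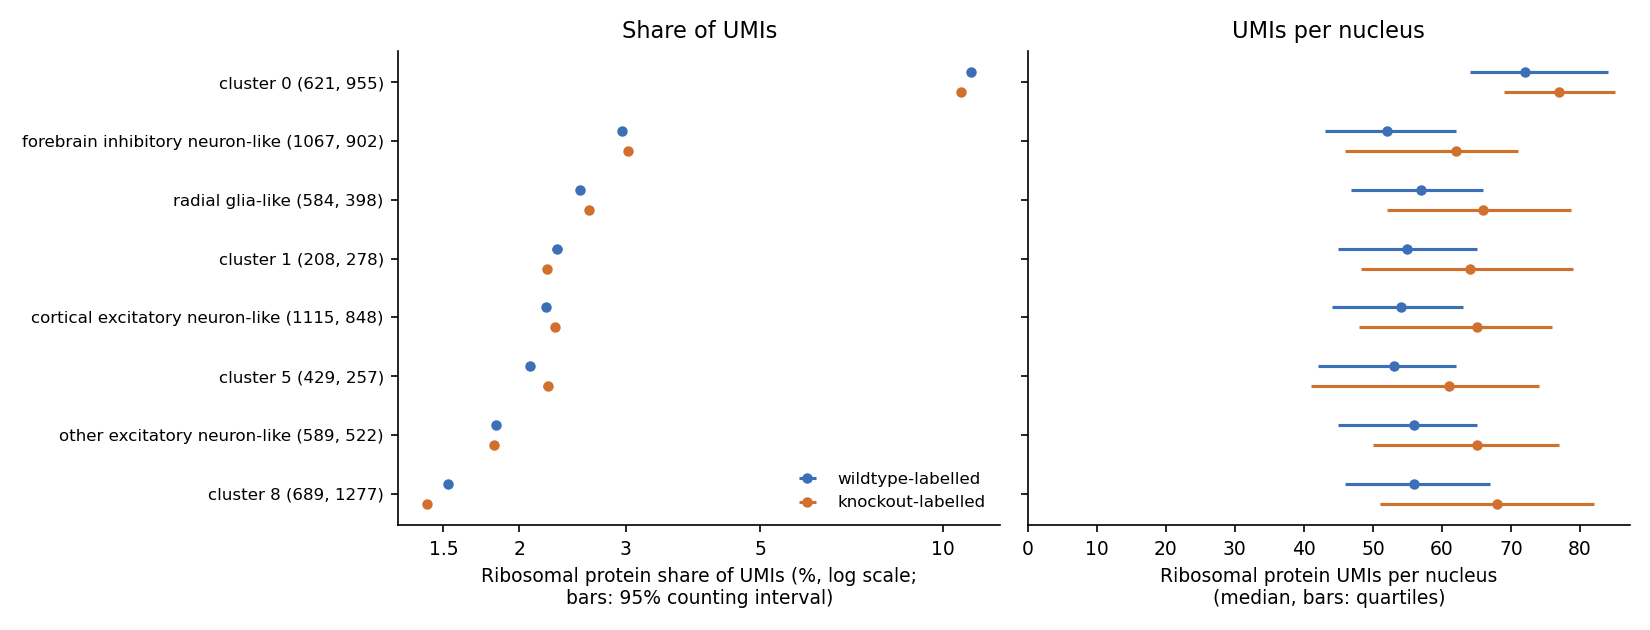
Ribosomal protein share of UMIs in percent on a log scale (left) and median ribosomal protein UMIs per nucleus with quartiles (right) for the named classes and unnamed clusters of at least 200 nuclei per library, whose numbers of nuclei are in parentheses. Shares run from 1.53% and 1.41% in cluster 8 to 11.1% and 10.7% in cluster 0 (9.99% in blue without the 2 high barcodes), while the medians of the 4 named classes lie between 52 and 57 in blue (wildtype-labelled) and between 62 and 66 in orange (knockout-labelled).

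The highest and the lowest class were nearly the same for all members, and these were also the shallowest and the deepest of the 4 classes. Of the 76, 73 were highest in forebrain inhibitory neuron-like nuclei, against 21.9% of all features, and 3 (Rpl13a, Rpl17 and Rps19) in radial glia-like nuclei, against 42.0%. All 76 were lowest in other excitatory neuron-like nuclei, against 32.7% of features. The 22 other cytoplasmic messages were likewise highest in forebrain inhibitory and lowest in other excitatory neuron-like nuclei in 22 of 22 cases. The range of log2 CPM over the 4 classes had a median of 0.71 and ran from 0.39 in Rpl6 to 0.83 in Rps3. Rps3, which lines the mRNA entry channel, stood at 510 CPM in forebrain inhibitory neuron-like and 287 CPM in other excitatory neuron-like nuclei of both libraries together. Rps25, which some viral internal ribosome entry sites need, stood at 186 and 105 CPM. Expressed as a share of all ribosomal protein UMIs, the range over classes had a median of only 0.10 on the log2 scale, and the widest was 0.45 in Rps10.

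Thinned to 1000 UMIs, a nucleus had a median of 20 of the 76 members detected in each library, over 5323 and 5053 nuclei with 828 and 1093 shallower ones left out. The 5th to 95th percentile was 10 to 32 and 9 to 33, and the median number of ribosomal protein UMIs was 24 in both. Without thinning the medians were 37 and 42 members. Other excitatory neuron-like nuclei had 17 members in both libraries and forebrain inhibitory neuron-like nuclei 24 and 25. Thinning keeps the expected share of each nucleus, so this order follows from the shares and is no separate check of them.

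The 4 ribosomal proteins outside the rule resembled the members in the ratio of low-gene barcodes to kept nuclei given above. Between libraries the log2 ratio of their sum was −0.004 (−0.034 to 0.026) in kept nuclei and 0.21 in low-gene barcodes. The sum of the members had −0.084 and 0.11. Fau, a fusion with a ubiquitin-like protein, had a ratio between libraries of −0.15 in kept nuclei, and Rack1, a scaffold on the small subunit, −0.02. Rps3a1 was higher in the knockout-labelled library at 309 against 363 CPM in kept nuclei, 0.23 (0.18 to 0.29), and 1263 against 1739 CPM in low-gene barcodes, 0.46. Of the paralogs, Rps4l was higher at 26.3 against 33.1 CPM, 0.33 (0.15 to 0.52), and at 99.3 against 151 CPM in low-gene barcodes, 0.60, while its X-linked relative Rps4x had −0.07. Rpl22l1 had −0.06, Rps27l −0.17, Rpl7l1 0.06 and Rps27rt −0.24 (−0.74 to 0.27). Rpl39l had 1 and 3 UMIs, Rpl3l 1 and 4, and Rpl10l 0 in both.

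Features annotated as ribosomal protein pseudogenes were mixed in direction, while all 76 members were higher in low-gene barcodes. Of 322 such features, 20 had at least 100 UMIs, and their log2 ratio of low-gene barcodes to kept nuclei had medians of −0.34 and −0.31, while the summed counts gave 0.28 and 0.36, the opposite sign. Past 2-fold, 6 of the 20 were higher and 5 lower in low-gene barcodes of both libraries. Among the lower ones, Rpl27a-ps4 had −2.79 and −3.39, against 1.93 and 2.04 for Rpl27a. Reads of a pseudogene and its parent can be near-identical, so the counts of both are uncertain.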

How the data were processed

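Both libraries were read as the raw UMI counts per gene and barcode that the authors deposited. The headers of the files name Cell Ranger 6.1.1, and the submitters' processing notes Cell Ranger 3.0.1, STAR and GRCm39. Whether intronic reads or strand were used in counting is not given in the sources used here. The lowest barcode total was 500 UMIs. Nuclei were kept with at least 500 genes and at most 5% mitochondrial UMIs (108 and 227 barcodes were over it). Scrublet's automatic threshold marked 0 doublets, so the 8% with the highest scores were removed (535 and 534). Clustering used scanpy 1.11.5 with 2000 variable genes per library, members left out, 30 components, 15 neighbours and Leiden resolution 1. Ratios are log2 of CPM of summed counts, with conditional binomial intervals for ratios, Clopper-Pearson intervals for shares and Poisson intervals for counts (95%; scipy 1.17.1). PCR copies are collapsed by UMI. Ratios, fold calls, thinning and the intervals of ratios and shares were tested on simulated counts drawn with counting error only. Filtering, doublet removal, clustering, class naming and the search for runs were not tested in this way.

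Gene names came from the files, positions from GENCODE M39 (54749 of 55416 features matched, 98.8%), start windows from RefSeq. Members and lists were chosen with earlier results of these data known. Genes named were the 4 highest and lowest between libraries and between barcode sets, the 3 with the widest range over classes, and the genes of known role, the left-out genes, the paralogs and up to 3 genes of most UMIs per list; Rps28, Rpl38, Rps6, Rpl27a, Rpl13a and Rpl17 were named after their values were seen, and some genes that the rule takes are not reported here. Alternatives covered gene and mitochondrial limits, doublets, scaling, thinning, resolution, fold and reference barcodes; those leaving out cluster 0, deep, shared or high barcodes were chosen after seeing the data.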

Additional observations from a re-analysis of the deposited data

Results flagged for a closer look

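The log2 ratio of summed ribosomal protein counts, knockout-labelled over wildtype-labelled, was −0.084 in kept nuclei and 0.11 in barcodes under 500 genes, so the 2 sets of barcodes differed in direction. Over nuclei of all depths it also differed in direction between unnamed clusters, at −0.11 in cluster 8 and 0.10 in cluster 5. With depth held to 2000 to 3000 UMIs, both clusters had the larger share in knockout-labelled nuclei. Shares there were 2.045% and 2.20% in cluster 8, and 2.22% and 2.56% in cluster 5. Neither difference in direction was tested, since each genotype has 1 library.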

How the results depend on the processing

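The ratio of summed ribosomal protein counts between libraries (log2 −0.084) turned positive with a minimum of 200 genes (0.028), without barcodes of at least 10000 UMIs (0.051), thinned to 1000 UMIs (0.019), without unnamed clusters (0.036) and with classes weighted equally (0.034). It stayed negative with a minimum of 1000 genes (−0.16), no mitochondrial limit (−0.074), a 1% limit (−0.095), doublets kept (−0.032), without cluster 0 (−0.11), without the 2 high barcodes (−0.037) and scaled by the median gene ratio (−0.065); the cause was not tested. Members past 1.5-fold numbered 2 higher and 3 lower at 1.2-fold, and 0 lower at 2-fold, at 200 genes and without the deep or the high barcodes. The share in kept nuclei (2.52% and 2.38%) was 3.29% and 3.36% at 200 genes, 2.20% and 1.97% at 1000 genes, 2.59% and 2.46% without a mitochondrial limit, 2.17% and 2.04% at 1%, 2.36% and 2.31% with doublets, 2.17% and 2.02% without cluster 0, 2.44% in the wildtype-labelled library without the high barcodes, 2.49% and 2.58% without deep barcodes, 2.54% and 2.40% without mitochondrial and haemoglobin UMIs, 2.61% and 2.48% without Malat1, and 2.66% and 2.52% with the left-out and pseudogene features. Without mitochondrial and haemoglobin UMIs the share at 500 to 600 UMIs was 10.5% and 11.3%, and at 5000 to 10000 UMIs 1.36% in the knockout-labelled library.

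The ratio of low-gene barcodes to kept nuclei (2.01 and 2.2) was 2.06 and 2.35 with barcodes under 800 UMIs, 2.31 and 2.59 against nuclei of at least 2000 UMIs, 2.23 and 2.44 without cluster 0, 2.05 in the wildtype-labelled library without the high barcodes, and 2.19 in the knockout-labelled library under 400 genes. Without cluster 0, translation factors had 2.04 and 2.20, mitochondrial ribosomal proteins 1.53 and 1.64, nuclear RNAs −2.49 and −3.0, and other cytoplasmic messages 2.22 and 2.39. The ratio of forebrain inhibitory to other excitatory neuron-like shares (0.69 and 0.74) was 0.57 and 0.52 at resolution 0.5, 0.47 and 0.56 in nuclei of at least 2000 UMIs, and, in the knockout-labelled library, 0.62 with members among the variable genes and 0.72 at resolution 2. Members detected numbered 30 at 2000 UMIs and 37 and 42 unthinned. The other 25 recomputed values of these results moved by less than their counting interval or, for counts, by less than 1.5 times; for the 8 genes at the ends of the order between libraries, 28 of 96 moved by more and 0 reversed. No paired analysis was possible because each genotype has 1 library, and for the same reason no library could be left out.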
